A study of Mus musculus with 8 samples.

Results

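The 8 genes of the smooth muscle and fetal actin program, *Acta1*, *Acta2*, *Actc1*, *Tagln*, *Cnn1*, *Myh11*, *Srf* and *Myocd*, were examined for H3K27Ac, the acetylation of lysine 27 of histone H3 that marks active promoters and enhancers. A peak was assigned to a gene when its centre lay nearer to a curated RefSeq transcription start of that gene than to the start of any other gene. By this rule 20 of the 45980 H3K27Ac peaks on the 21 chromosomes of mm10 belonged to the genes. *Myocd* had 10 of them, *Acta2* had 3, *Tagln*, *Myh11* and *Srf* had 2 each, and *Cnn1* had 1, while 0 peaks were nearest to *Acta1* or *Actc1*.

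The peaks come from ChIP-Seq of mouse ventricles at postnatal day 7 (P7). The 2 control hearts were Arid1a f/f, with loxP sites on both *Arid1a* alleles and no Cre, and the 2 *Arid1a cKO* hearts were aMHC-Cre;Arid1a f/f, in which a Cre transgene under the αMHC promoter deletes *Arid1a* in cardiomyocytes. Each heart gave an H3K27Ac library and an input library, which makes 8 libraries in 4 groups. The other cells of the ventricle, among them the smooth muscle cells, pericytes, fibroblasts and endothelial cells that were homogenized with the cardiomyocytes, are not targets of this Cre. The deposited table gives for each peak the authors' mean over the 2 hearts of each genotype, in normalized reads, and has 0 columns of per-sample values. Library depth and the spread between hearts are therefore unknown, no difference below carries an SD or a test, and a peak was called changed only when its means differed at least 2-fold. To compare peaks of like strength, all peaks were also ranked by their level and split into 4 groups of about equal size, the level groups. Because whole ventricles were used, fewer cells of a type and less of the mark per cell cannot be told apart. The genotypes were taken from the labels, since H3K27Ac does not show whether the floxed exon was deleted.

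SRF, encoded by *Srf*, is a transcription factor that binds the CArG box, a DNA element with CC and GG around an A/T-rich middle. It has little activity on muscle genes alone, and myocardin, encoded by *Myocd*, or the actin-sensing MRTF proteins join it as coactivators. Myocardin is made in cardiomyocytes and in smooth muscle cells. Targets of SRF include α-smooth muscle actin (*Acta2*), the actin-binding proteins transgelin (*Tagln*) and calponin (*Cnn1*), the smooth muscle myosin heavy chain (*Myh11*), and the sarcomeric actins of skeletal (*Acta1*) and cardiac (*Actc1*) muscle. Embryonic cardiomyocytes express *Acta2* and *Tagln* and switch them off as they mature, *Acta1* is high in fetal heart, and *Actc1* is the main sarcomeric actin of the heart throughout life. In the postnatal ventricle, *Acta2*, *Tagln*, *Cnn1* and *Myh11* mark vascular smooth muscle, and activated fibroblasts and pericytes also express *Acta2* and *Tagln*.

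RefSeq promoter windows, which run from 250 bases before a start to 50 after it on GRCm38.p6 (the assembly of mm10), were at hand for 5 of the 8 genes: *Acta1*, *Acta2*, *Actc1*, *Cnn1* and *Srf*. The windows of the 3 actin genes and *Srf* are shown because all 4 hold the SRF element, while the H3K27Ac peak at the start was higher in *Arid1a cKO* hearts at *Acta2*, lower at *Actc1* and *Srf*, and absent from the table at *Acta1*. Each sequence is printed 5′ to 3′ on the strand of the gene and ends at the base before the start. Capitals mark CArG boxes, CArG boxes in which 1 of the 6 middle bases is C or G (1-changed boxes), and the TEAD core CATTCC or its complement GGAATG, which TEAD factors, the DNA-binding partners of YAP, recognize.
Acta2, chr19:34255374-34255529, minus strand: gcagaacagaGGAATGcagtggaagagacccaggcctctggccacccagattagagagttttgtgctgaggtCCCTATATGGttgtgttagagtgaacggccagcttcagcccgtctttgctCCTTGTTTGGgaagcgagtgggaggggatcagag
Actc1, chr2:114052876-114053060, minus strand: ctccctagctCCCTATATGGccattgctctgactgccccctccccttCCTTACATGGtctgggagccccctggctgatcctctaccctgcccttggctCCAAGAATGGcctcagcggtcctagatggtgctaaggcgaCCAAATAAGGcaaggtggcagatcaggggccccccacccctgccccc
Acta1, chr8:123894776-123894990, minus strand: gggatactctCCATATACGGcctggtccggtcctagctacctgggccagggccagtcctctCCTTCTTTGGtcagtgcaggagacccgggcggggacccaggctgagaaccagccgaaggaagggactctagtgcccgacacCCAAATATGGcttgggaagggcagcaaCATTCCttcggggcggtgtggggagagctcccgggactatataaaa
Srf, chr17:46556163-46556254, minus strand: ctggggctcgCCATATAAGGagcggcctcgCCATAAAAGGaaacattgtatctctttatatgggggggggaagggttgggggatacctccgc

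The 3 actin promoters and the promoter of *Srf* itself each held at least 2 boxes when 1-changed boxes were counted, as did 0.822% of 32851 RefSeq promoter windows of the same length. Counted from the start to the first base of the box, exact boxes lay at 73 bases in *Acta1*, at 47 in *Actc1*, and at 82 and 62 in *Srf*. The *Acta2* promoter held 1-changed boxes only, at 84 and 34 bases. Exact boxes were present in 1.63% of all windows, 1-changed boxes in 8.5% and either kind in 9.98%. The TEAD core was present in *Acta1*, 46 bases before the start, and in *Acta2*, 146 bases before it on the opposite strand. It was present in 14.7% of all windows, and a box of either kind together with a TEAD core in 1.62%. The *Cnn1* window held neither box nor core. A match is a description of the letters, not a bound site.

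Across the 20 peaks, H3K27Ac was higher in *Arid1a cKO* hearts at 11 and lower at 9, where 50.6% of all peaks were higher and 48.3% lower, and the median log2 difference (*Arid1a cKO* minus control, here and below) was 0.15, beside 0.01 over all peaks. At least 2-fold higher were 2 of the 20 peaks, an *Acta2* peak 14.8 kb upstream of the gene and the *Tagln* peak at its start, which is 10% of the peaks against 4.57% of all peaks. At least 2-fold lower were 0 of the 20, against 10.6% of all peaks. The direction of the median was not stable to how the peaks were chosen: it was −0.2 over the 15 peaks left when the lowest level group was removed, and −0.265 over the 24 peaks centred in the gene bodies with 5 kb on each side. Without the 10 *Myocd* peaks, an alternative chosen after the values were seen, 8 peaks were higher, 2 were lower and the median was 0.225. The members differed in direction. *Acta2* and *Tagln* were higher at each of their peaks, *Myocd* was lower at 7 of its 10 peaks, the single *Cnn1* peak was lower, and *Myh11* and *Srf* had the smallest summed differences.

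**Figure D1:**
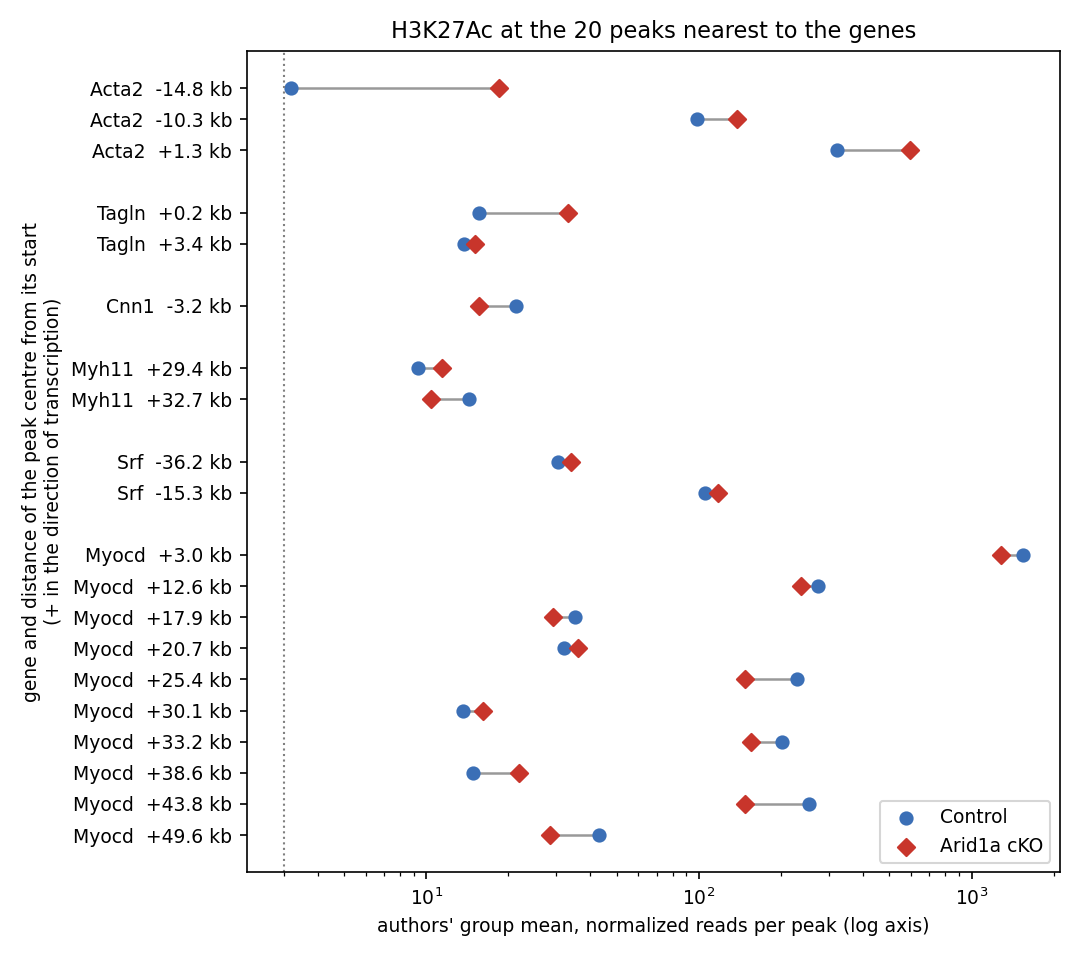
Authors' mean H3K27Ac level of each of the 20 peaks in control (blue circles) and *Arid1a cKO* hearts (red diamonds), in normalized reads on a log axis, with peaks ordered by gene and by the distance of their centre from the start. The dotted line marks 3 normalized reads. The red diamond lies to the right of the blue circle at all 3 *Acta2* and both *Tagln* peaks and to its left at 7 of 10 *Myocd* peaks.

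*Acta2* (chr19:34240336-34255373, minus strand) had the largest summed difference of the members. Over its 3 peaks the level was 423 normalized reads in control and 753 in *Arid1a cKO* hearts, which is 77.9% higher and a log2 difference of 0.83. Of the 15761 genes that were nearest to a peak, 2.52% had a summed difference at least as high. Most of the level came from the promoter peak (chr19:34251435-34256767, 5333 bp), which covers the start and reaches 3.94 kb into the gene. Its mean was 322 normalized reads in control and 596 in *Arid1a cKO* hearts (60.3 and 112 per kb), a log2 difference of 0.89. That is 1.85-fold and short of the 2-fold limit, yet few peaks of its strength were as far up: in the highest level group, 0.322% had a difference at least as high and 0.226% were at least 2-fold higher. Among the 12022 peaks that cover a start, 1.67% were at least as high.

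Both intergenic peaks upstream of *Acta2* were higher as well. The peak 10.3 kb upstream (chr19:34264617-34266727) had 98.4 normalized reads in control and 138 in *Arid1a cKO* hearts, a log2 difference of 0.49, and 10.4% of the peaks in its level group were at least as high. The peak 14.8 kb upstream (chr19:34269662-34270623) had 3.18 normalized reads in control and 18.5 in *Arid1a cKO* hearts, a log2 difference of 2.54. This was the steepest difference among the members, but its control mean lay just above the floor of 3 reads to which lower means were raised, and weak peaks differed more often: 12.5% of the lowest level group were at least 2-fold higher, and 0.268% were as far up as this peak. The floor limits how far the weakest peaks of that group can differ, so the share of 0.268% is held down by it. The next peak beyond these, 29.0 kb upstream and nearest to *Fas*, differed by 0.24, and the peak 35.6 kb upstream in an intron of *Fas* was lower, with 51.6 and 38.3 normalized reads and a difference of −0.43. On the other side, a peak 62.3 kb downstream of the *Acta2* start in an exon of *Stambpl1* had 52.7 and 95.7 normalized reads, a log2 difference of 0.86.

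Matches to the SRF and TEAD elements lay in each *Acta2* peak. They are printed on the strand of *Acta2* with the same use of capitals, to show the letters under the regions that differed. The first and second lines lie in the first intron inside the promoter peak, 2.18 and 1.08 kb downstream of the start. The next pair lie in the peak 10.3 kb upstream, with boxes 10.5 and 11.0 kb from the start, and the last in the peak 14.8 kb upstream.
Acta2 intron, chr19:34253181-34253214: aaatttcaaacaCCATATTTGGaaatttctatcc
Acta2 intron, chr19:34254276-34254309: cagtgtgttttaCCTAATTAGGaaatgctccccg
Acta2 upstream, chr19:34265822-34265915: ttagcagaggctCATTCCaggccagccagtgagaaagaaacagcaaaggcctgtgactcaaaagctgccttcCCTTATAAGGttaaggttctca
Acta2 upstream, chr19:34266360-34266393: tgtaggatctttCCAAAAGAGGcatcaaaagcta
Acta2 upstream, chr19:34270082-34270140: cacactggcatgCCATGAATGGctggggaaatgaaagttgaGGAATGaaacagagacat

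The promoter peak of *Acta2* held 2 exact and 2 1-changed boxes and 7 TEAD cores, or 1.31 cores per kb beside 0.612 per kb over all peaks. Wide peaks hold more matches of any kind. Among the widest of 4 groups of peaks ranked by width, 23.5% held an exact box and 90.7% a TEAD core. In the peak 10.3 kb upstream an exact box and a TEAD core were 54 bases apart, and in the peak 14.8 kb upstream a 1-changed box and a TEAD core were 19 bases apart. Over the 18 member peaks that were searched, 4 held an exact box, 10 a 1-changed box, 11 a TEAD core and 2 a match to the MEF2 core, another cardiac element. Exact boxes lay in 11.6% of all peaks, 1-changed boxes in 46.2%, TEAD cores in 65.4% and MEF2 cores in 7.56%. Matches lay in peaks of both directions. The *Myocd* peak with the largest decrease (−0.78) also held 7 TEAD cores, and the *Cnn1* peak and the *Tagln* peak in the gene held no match to any of these.

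*Tagln* (chr9:45929628-45936058, minus strand), whose protein binds actin filaments in smooth muscle, was higher too, at a far lower level per kb than *Acta2*. The peak over its start (chr9:45935162-45936507) had 15.6 normalized reads in control and 33.1 in *Arid1a cKO* hearts, a log2 difference of 1.09 or 2.13-fold (11.6 and 24.6 per kb). The median over all peaks of the table was 44.3 normalized reads, so both means were low. Among peaks that cover a start, 0.932% were at least as far up and 1.16% passed 2-fold. The second *Tagln* peak, 3.44 kb into the gene in an intron (chr9:45932158-45933084), had 13.7 and 15.1 normalized reads, a log2 difference of 0.14. Summed over both, *Tagln* had 29.3 and 48.3 normalized reads and a log2 difference of 0.72, and 3.45% of genes were at least as high. With the weaker of the 2 peaks left out, the difference was 1.09.

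Markers of fibroblasts were higher in the same hearts. All 6 genes of that list, *Pdgfra*, *Tcf21*, *Col1a1*, *Col1a2*, *Dcn* and *Postn*, had a higher summed level in *Arid1a cKO* hearts, where 49% of all genes did and 50.3% were lower, with differences from 0.25 in *Postn* to 0.58 in *Col1a1*. The list as a whole had 3259 normalized reads in control and 4383 in *Arid1a cKO* hearts, a log2 difference of 0.43, and 5 of its 37 peaks were at least 2-fold higher and 0 lower, against 4.57% and 10.6% of all peaks. Of these 5, 4 were nearest to *Tcf21* and 1 to *Postn*. They lay 34.6 to 183 kb from the starts and were weak, with 4.2 to 26.4 normalized reads in control. Macrophage markers were higher at each of the 4 genes with a peak, from 98.2 to 126 normalized reads in sum (0.36), and the fifth, *Adgre1*, had no peak nearest to its start. Markers of mural cells, the vascular smooth muscle cells and pericytes, were not higher. Of 8 genes, 3 were higher and 5 lower, and the sum differed by −0.015. *Pdgfrb* was at the upper end (0.18) and *Mcam* at the lower (−0.56). The lower sum of *Mcam* (205 and 139 normalized reads) rests on a peak in an intron of *Cbl*. That peak had 115 and 44.9 normalized reads, a log2 difference of −1.36. An intergenic *Mcam* peak was higher, with 8.94 and 22.3 normalized reads, a difference of 1.32. Endothelial markers differed by 0.02 in sum, with 4 of 5 genes higher, and cardiomyocyte markers by −0.11, with 2 of 8 higher. The part of fibroblasts or macrophages in the differences of *Acta2* and *Tagln* was not tested.

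*Cnn1* and *Myh11*, the members most restricted to differentiated smooth muscle, had no peak over a start and only weak peaks elsewhere. The *Cnn1* peak (chr9:22095678-22096410), 3.21 kb upstream and intergenic, had 21.3 normalized reads in control and 15.7 in *Arid1a cKO* hearts, a log2 difference of −0.44. *Myh11* had a pair of neighbouring intronic peaks that differed in opposite directions. The peak 29.4 kb into the gene (chr16:14261401-14262552) had 9.32 and 11.4 normalized reads, a log2 difference of 0.29, and the peak 32.7 kb into it (chr16:14258374-14259129) had 14.3 and 10.4, a difference of −0.46. Their sum differed by −0.12. Another peak, at the 3′ end of *Myh11* and nearer to the start of *Nde1*, had 35.8 and 47.8 normalized reads, and with it the sum turned to 0.23, so no direction can be given for *Myh11*.

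*Actc1* had the broadest peak at its start. It (chr2:114047852-114060835) spans 12984 bp and most of the gene, and was assigned to the noncoding gene *C130080G10Rik*, whose start lies nearer to its centre, so it is not among the 20. The peak had 2165 normalized reads in control and 1687 in *Arid1a cKO* hearts (167 and 130 per kb), a log2 difference of −0.36. Of the peaks that cover a start, 9.03% were at least as low. Per kb, the control level at the start was highest at *Srf* (187), followed by *Actc1* (167), *Myocd* (146), *Acta2* (60.3) and *Tagln* (11.6), and only at the last and weakest pair was *Arid1a cKO* the higher group. With noncoding genes left out of the assignment, 6 peaks were nearest to *Actc1*, 2 higher and 4 lower, with a summed difference of −0.35. The cardiac actin and the smooth muscle actin therefore differed in opposite directions at their starts in these means, each relative to a median of 0.01 over all peaks that cover a start. For *Acta1*, the third muscle actin of the list, no peak of the table covers a start, and the nearest peaks, 35.4 and 54.7 kb away, lie at the promoters of *Ccsap* and *Nup133* and differed by 0.09 and −0.18.

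**Figure D2:**
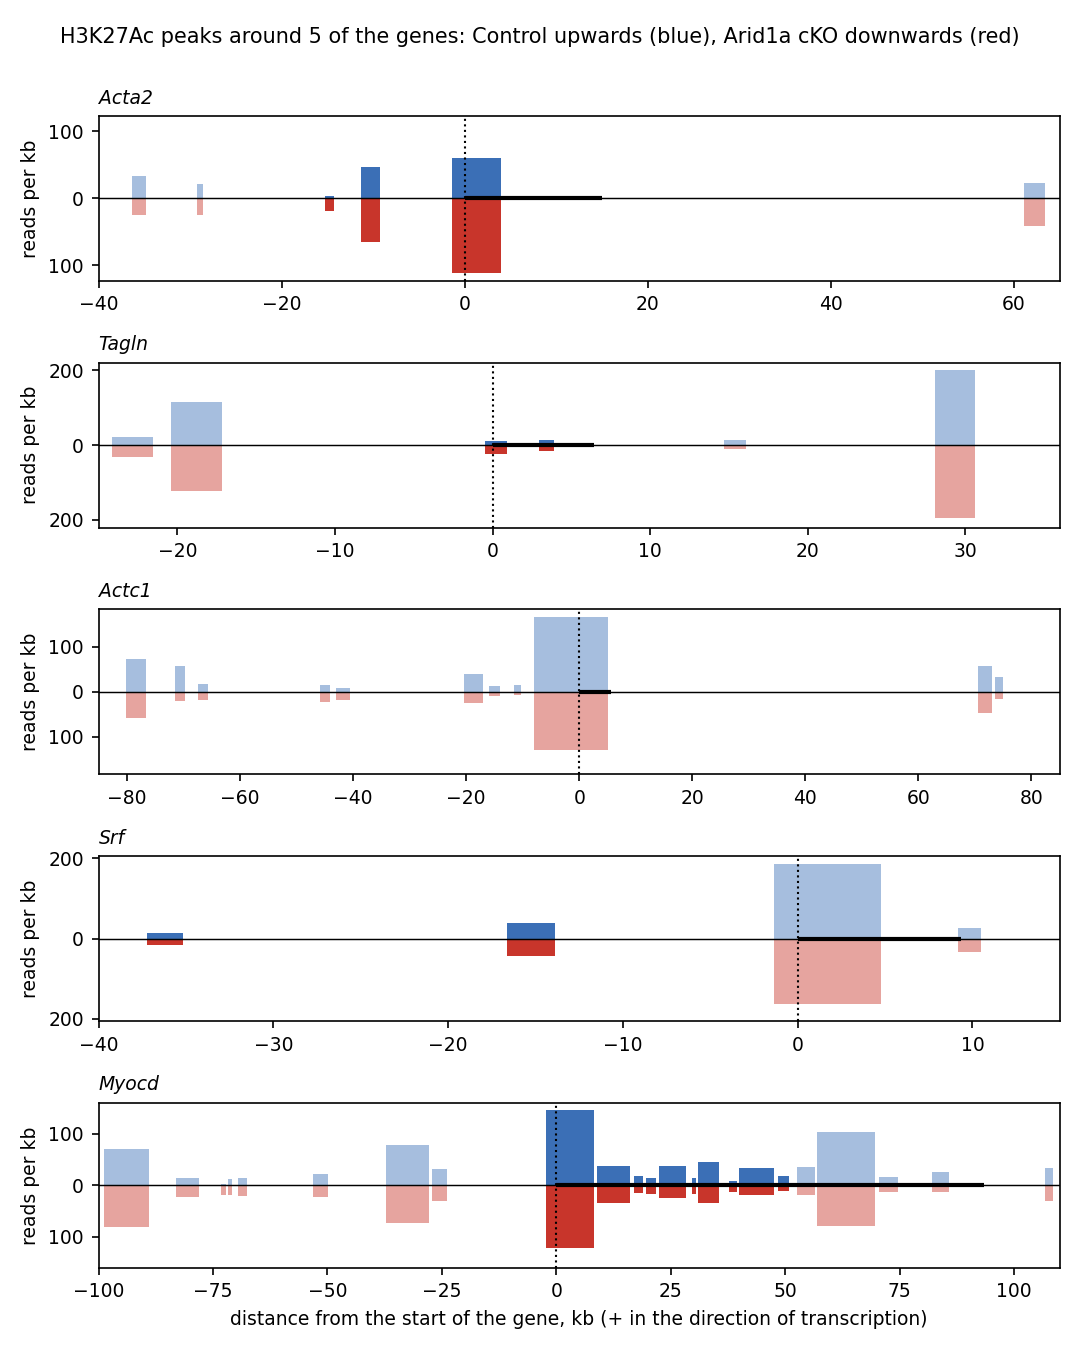
H3K27Ac peaks around *Acta2*, *Tagln*, *Actc1*, *Srf* and *Myocd*, drawn as bars of their width, with the authors' mean in normalized reads per kb upwards for control (blue) and downwards for *Arid1a cKO* hearts (red), against the distance from the start in kb. The black line is the gene, full colour marks the peaks nearest to its start and pale colour those nearest to another gene. The red bar at the *Acta2* start reaches 112 per kb against 60.3 for the blue one, whereas at *Actc1*, *Srf* and *Myocd* the red bars at the start are the shorter ones.

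*Srf* also had a strong peak over its start (chr17:46551407-46557529) that was nearest to another gene, the microRNA gene *Mir6976*. That peak had 1144 normalized reads in control and 996 in *Arid1a cKO* hearts, a log2 difference of −0.2. The peaks assigned to *Srf* by the rule lie in introns of the upstream gene *Ptk7*, 15.3 kb (chr17:46570073-46572822) and 36.2 kb (chr17:46591311-46593403) from the start. They had 105 and 118, and 30.5 and 34.1 normalized reads, and each differed by 0.16. The summed difference of *Srf* was therefore 0.16 by the rule and −0.16 once noncoding genes were left out and the promoter peak was counted, so its sign depends on the assignment and both sizes are small.

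*Myocd* (chr11:65176561-65269989, minus strand) had the most peaks of the set and the largest part of their reads. All 10 peaks are centred in its introns, and over them the level was 2638 normalized reads in control and 2107 in *Arid1a cKO* hearts, a change of −20.1% and a log2 difference of −0.32. A summed difference at least as low was found for 17.7% of genes. The peak over the start (chr11:65261690-65272279, 10590 bp) was the strongest of the 20 per kb, with 1541 and 1287 normalized reads and a log2 difference of −0.26. The 5 peaks with at least 100 normalized reads in control were all lower, by −0.2 to −0.78, and of the 5 weaker peaks 3 were higher. The limit of 100 reads was set for this gene only. It uses the control mean, which is part of the difference, so it favours decreases above it and increases below it. Of all peaks, 54.1% of the highest level group were lower, and 52.5% and 53.2% of the lowest and second lowest were higher.

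Of the 10 peaks, the largest decreases were at 43.8 and 25.4 kb from the start. The peak 43.8 kb from the start (chr11:65222349-65230052) had 254 normalized reads in control and 148 in *Arid1a cKO* hearts, a log2 difference of −0.78, and 4.39% of the peaks in its level group were at least as low. The peak 25.4 kb from the start (chr11:65241602-65247540) had 229 and 148 normalized reads, a difference of −0.63. Between them the peak at 33.2 kb (chr11:65234496-65239024) had 202 and 155, a difference of −0.38. None of the 10 reached a 2-fold decrease, which 2.75% of the highest level group did. The 3 higher peaks had 13.6 to 32 normalized reads in control and differed by 0.17 to 0.56.

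Peaks further down the gene, nearer to the start of *Arhgap44*, were lower too, and a pair of them by more than any of the 10. The peak 84.0 kb from the start (chr11:65184095-65187839) had 99.7 normalized reads in control and 50.2 in *Arid1a cKO* hearts, a log2 difference of −0.99, just short of 2-fold. The peak at 54.6 kb (chr11:65213450-65217381) had 138 and 76.1, a difference of −0.86, and the peak at 72.5 kb differed by −0.44. The broad peak 63.4 kb from the start (chr11:65200252-65212998) had 1333 and 1017 normalized reads, a log2 difference of −0.39. With all 14 peaks in the gene body and 5 kb around it the summed difference was −0.37, with 11 lower and 3 higher. Upstream of the start the picture was different. With noncoding genes left out, 8 further peaks upstream were assigned to *Myocd*, 6 of them higher and 2 lower, and the summed difference shrank to −0.14. Their steepest, 72.7 kb upstream (chr11:65342083-65343281), went from 3.29 to 22.8 normalized reads, a log2 difference of 2.79, and like the *Acta2* peak 14.8 kb upstream it started from a control mean just above 3 reads.

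**Figure D3:**
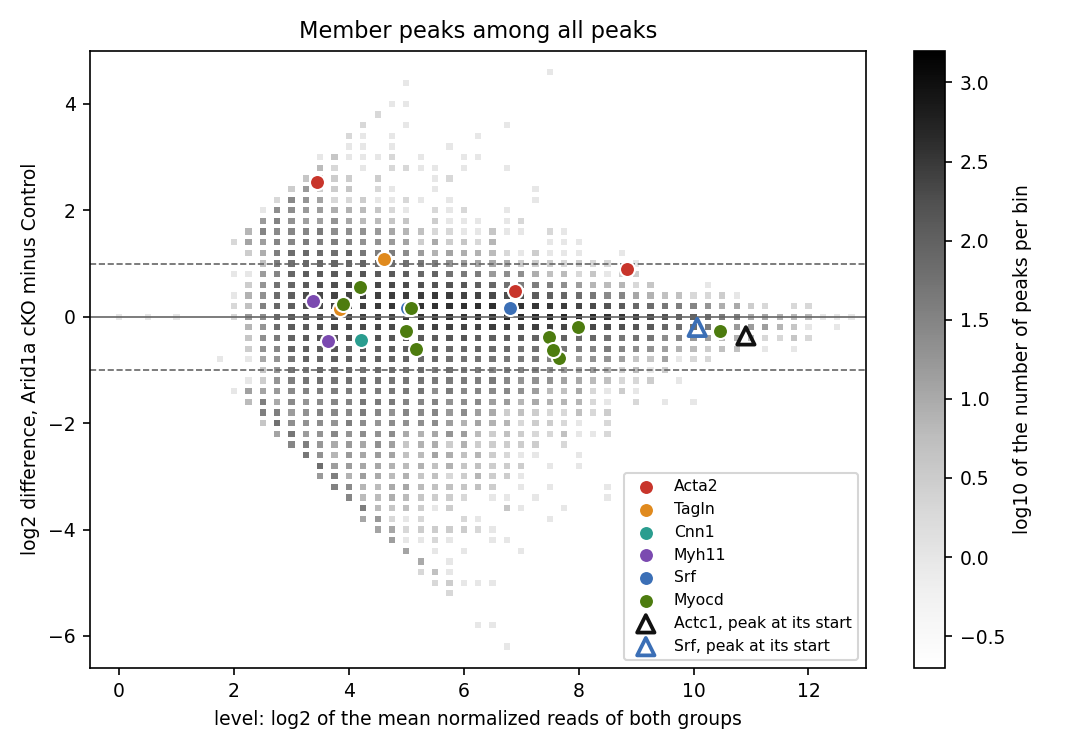
Log2 difference (*Arid1a cKO* minus control) against level (log2 of the mean normalized reads of both groups) for all 45980 peaks, as grey bins shaded by the number of peaks, with the 20 member peaks as coloured circles and the promoter peaks of *Actc1* and *Srf* as open triangles. Dashed lines mark 2-fold. The grey cloud narrows as the level rises, and the *Acta2* promoter peak, at a difference of 0.89, lies at its upper edge.

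The partners of SRF showed no common direction. Of 5 cofactor genes, 2 had a higher and 3 a lower summed level, and over their 30 peaks the median difference was −0.05, with 2 peaks at least 2-fold higher and 2 lower, against 4.57% and 10.6% of all peaks. *Mrtfa*, which encodes a coactivator released by actin polymerization, was the highest at 0.44, and *Mrtfb*, its homolog, the lowest at −0.27. An intergenic peak 40.2 kb upstream of *Mrtfb* had 115 normalized reads in control and 31.8 in *Arid1a cKO* hearts, a log2 difference of −1.85. The factors of the ELK family, which bind SRF in place of myocardin, differed by −0.09 to 0.05.

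Other smooth muscle contractile and cytoskeletal genes lay near the background as a list, in sum and median, though some single genes were higher than most. Of the 17 of 18 genes with a peak, 10 were higher and 7 lower in summed level, where 49% of all genes were higher and 50.3% lower, and the sum over the list differed by 0.03. Over 95 peaks the median difference was 0.09, with 3 peaks at least 2-fold higher and 5 lower, against 4.57% and 10.6% of all peaks. The balance of these counts turned with the settings. At a limit of 1.5-fold 15 of the 95 peaks were higher and 9 lower, against 12% and 17.3% of all peaks. By protein-coding starts 9 of 133 peaks were at least 2-fold higher and 5 lower. *Myl9*, the regulatory light chain of smooth muscle myosin, was the highest, with 242 and 377 normalized reads at its single peak, a log2 difference of 0.64. *Actg2*, the enteric smooth muscle actin (0.58, from 18.4 to 27.5 normalized reads), the integrin gene *Itga8* (0.48) and *Cald1*, which encodes the actin-binding protein caldesmon (0.42, from 1464 to 1960 reads), came next. These and *Myl9* lay above the 90th percentile of all genes (0.41), and no gene of the list lay below the 10th (−0.56). *Kcnmb1* (0.39) and *Tpm2* (0.36) followed. At the other end *Ppp1r12b*, which encodes a subunit of the myosin phosphatase of muscle, differed by −0.47, with 3 of its 12 peaks at least 2-fold lower. These are 3 of the 5 such peaks of the list. *Flna* (−0.22) was the next lowest. *Mylk* had no peak nearest to its start. Values between −0.2 and 0.18 were found for *Lmod1* (−0.03), *Smtn*, *Des*, *Tpm1*, *Vcl*, *Actn1*, *Csrp1*, *Synm* and *Synpo2*, which include genes that cardiomyocytes also express.

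Of 10 paralogs of the members, which encode the actins, transgelins, calponins and myosins of other cells, 8 had a peak, 6 of them higher and 2 lower in sum. Most lay close to 0. The cytoplasmic actin gene *Actb* differed by 0.01, *Cnn2* by 0.08, *Tagln2* by 0.14 and *Myh9* by 0.07. The exceptions were *Actg2*, named above, and *Myh14*, a nonmuscle myosin gene, whose 4 peaks had 284 normalized reads in control and 88.7 in *Arid1a cKO* hearts, a log2 difference of −1.68. Among the 39 paralog peaks 5 were at least 2-fold lower, 3 of them at *Myh14*, and 1 was at least 2-fold higher, against 10.6% and 4.57% of all peaks.

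The fetal cardiac genes beside the actins were split. Of 7 genes, 5 were higher and 2 lower, and 5 of their 25 peaks were at least 2-fold higher and 4 lower, against 4.57% and 10.6% of all peaks. The atrial light chain gene *Myl7* (from 11.3 to 56.0 normalized reads, a log2 difference of 2.31) and *Nppa*, which encodes atrial natriuretic peptide (from 49.5 to 234, a difference of 2.24), were far above *Acta2*, while *Tnni1*, the slow skeletal troponin I of fetal heart, differed by −0.73, and *Myh7*, the fetal ventricular myosin, by −0.12. Both *Myl7* peaks were weak in control, with 8.88 normalized reads and, at the start, 2.45, which is under the floor of 3 reads. Of 5 targets of YAP and TEAD, 4 were higher and 1 lower in sum, from *Ccn1* (−0.02) to *Ankrd1* (0.21), and 3 of their 30 peaks were at least 2-fold higher and 5 lower, against 4.57% and 10.6% of all peaks. At a limit of 1.5-fold the balance turned to 8 higher and 6 lower, against 12% and 17.3% of all peaks. *Ankrd1* is in both lists, and its 1 higher and 3 lower peaks past 2-fold are counted in each. *Acta2* and *Tagln* were above all 5 of these in summed difference.

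**Figure D4:**
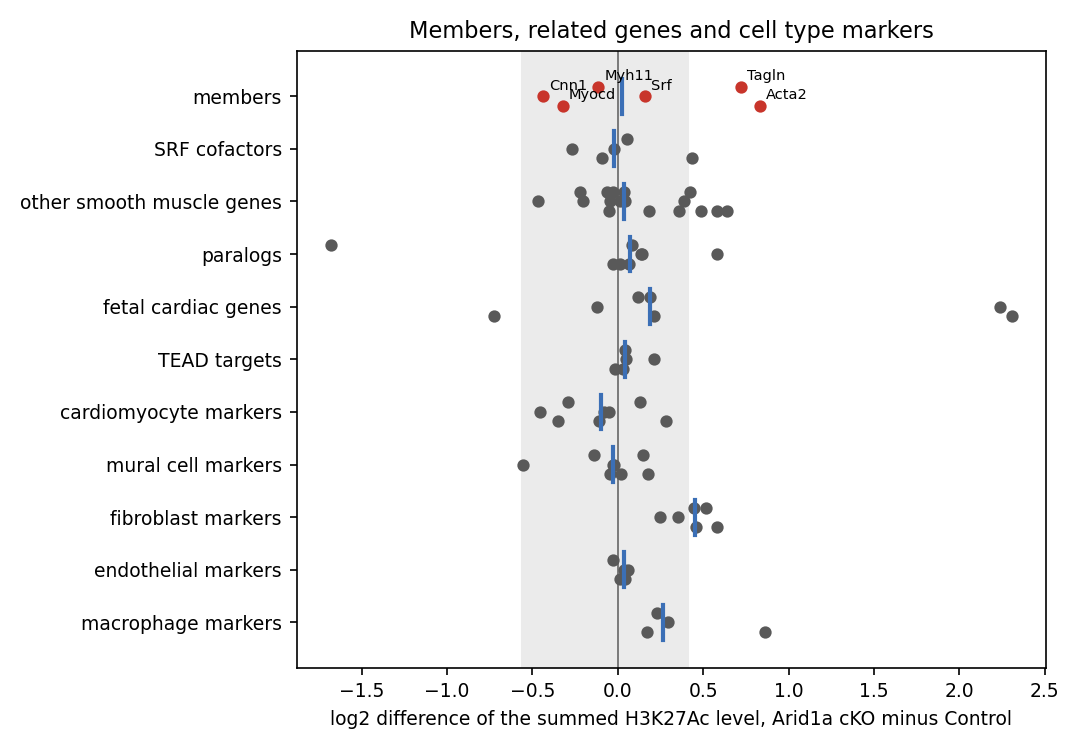
Log2 difference of the summed H3K27Ac level (*Arid1a cKO* minus control) of each member (red), each related gene and each cell type marker (grey), with the median of each list as a blue bar. The shaded band runs from the 10th to the 90th percentile of all genes, −0.56 to 0.41. *Acta2* and *Tagln* lie to the right of the band, *Cnn1*, *Myocd*, *Myh11* and *Srf* lie inside it, and all 6 fibroblast markers lie to the right of 0.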

How the data were processed

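H3K27Ac ChIP-Seq was performed on 2 control and 2 *Arid1a cKO* P7 ventricles, each with an input library. According to the paper's methods and the submitters' processing notes, the authors aligned the libraries with BWA 0.7.17-r1188 (genome mm10), used HOMER in its histone mode with the inputs merged, kept peaks found in more than 1 sample, and compared genotypes with DiffBind 2.12.0 and DESeq2 1.24.0. The authors' deposited values used here are log2 means of normalized reads per peak, for each genotype. The scaling of libraries and the treatment of input in these values are not given in the sources used here. Columns of per-sample values number 0, so depth, replicate error and sampling precision are unknown, and nothing was tested. Its columns with the authors' own fold change, p-value and FDR hold the comparison of the paper and were not used.

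Means were converted to reads, and differences are log2 *Arid1a cKO* minus control. Group means under 3 reads were raised to 3 for single peaks, which applied to 0 of the 20 peaks, while sums per gene took the values as deposited. Called means at least 2-fold. Of 45987 peaks, 7 on unplaced sequences were left out. Peaks were joined to 45756 curated RefSeq transcripts of GRCm38.p6. Level groups rank all peaks by the authors' mean over all samples. Motifs were read from the reference on both strands (the CArG box and the MEF2 core read alike on each). The 2 member peaks at the starts of *Tagln* and *Myocd* were not searched. Named genes are the 8 members and, in each list of related genes, the highest and lowest gene by summed level, genes with a peak past 2-fold up to 4 a list, and others named after their values were seen. The 8 members and all lists (SRF cofactors, other smooth muscle genes, paralogs, fetal cardiac genes, YAP and TEAD targets, and markers of cardiomyocytes, mural cells, fibroblasts, endothelial cells and macrophages) were chosen with earlier results of these data known. Alternatives changed the scaling, the assignment of peaks to genes, the distance limit, the filter on low levels, the fold limit, the floor and the motif. The assignment of peaks to the nearest start, the peak differences and the summed differences were checked on simulated data, and the other steps were not. Python 3.11.15 with numpy 2.4.6, pandas 2.3.3 and matplotlib 3.10.9 was used.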

Additional observations from a re-analysis of the deposited data

How the results depend on the processing

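The differences rest on 2 authors' means a peak, and the error of each is unknown. No paired analysis was possible because the table holds no per-sample values, and leaving out each replicate could not be run for the same reason. Of 81 alternatives to the counts, medians, sums per gene and promoter differences, 69 stayed within 0.1 on the log2 scale (or 1.5 times for counts) and 12 moved. Many of the 69 could not move. The changes of scaling shifted each log2 difference by less than 0.1. The distance limit of 50 kb, assignment by any part of a peak and removal of the floor left the same 20 peaks and values. The count of 69 is therefore no measure of stability. The signs of *Acta2*, *Tagln*, *Cnn1* and *Myocd* held under each alternative run. For *Acta2*, *Tagln* and *Cnn1* they could not have turned. Each alternative kept the same peaks of these genes or some of them, and the peaks of each gene shared a direction. Of the genes whose sign held, only *Myocd* gained peaks in an alternative. Leaving out the lowest of the 4 level groups changed the peaks at least 2-fold higher from 2 to 1, the median from 0.15 to −0.2 and *Tagln* from 0.72 to 1.09. It removed 5 member peaks, both of *Myh11* and 1 each of *Acta2*, *Tagln* and *Myocd*. Taking peaks centred in the gene body with 5 kb gave 1 peak at least 2-fold higher, a median of −0.265, *Myh11* at 0.23 and *Srf* at −0.18. Assigning peaks to protein-coding starts gave 1 peak at least 2-fold lower in place of 0, *Srf* at −0.16 and *Myocd* at −0.14. A limit of 1.5-fold gave 3 of the 20 peaks lower and 3 higher, against 17.3% and 12% of all peaks. Counting 1-changed CArG boxes gave 12 of 18 peaks in place of 4. Of 20 alternatives to the counts of the related lists, 7 moved by over 1.5 times. Promoter peaks centred within 1000 bp before to 100 bp after a start were not given a value, since no peak at a member start is centred there.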

Other observations

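Within 100 kb of *Actc1*, 3 weaker peaks that were nearest to other genes passed 2-fold on its upstream side, in both directions. A peak in an intron of *Aqr*, 70.6 kb upstream (chr2:114122565-114124396), had 105 normalized reads in control and 35.0 in *Arid1a cKO* hearts, a log2 difference of −1.58. A second peak in *Aqr*, 92.7 kb upstream (chr2:114145072-114145997), had 8.06 and 23.8 normalized reads, a difference of 1.56. An intergenic peak 10.9 kb upstream (chr2:114063210-114064335) had 18.1 and 8.51 normalized reads, a difference of −1.09. Near *Tagln*, a pair of intronic peaks of *Bace1*, the gene of a membrane protease, were lower while *Tagln* itself was higher. The stronger of them, 85.8 kb from the *Tagln* start (chr9:45848470-45852016), had 320 and 81.6 normalized reads, a difference of −1.97, and 0.357% of the peaks in its level group were at least as low. These peaks were picked after their values were seen, and their target genes are not known from the table.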
